A study of Mus musculus with 12 samples.

Results

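The histone demethylase Jmjd2a (Kdm4a) had 344 binding sites annotated to gene bodies, at places where its relative Jmjd2c (Kdm4c) had no called peak. The deposited annotation puts them over 10000 bp from any start site, and a RefSeq gene lay under 332 of them. The 344 sites are the rows of the Jmjd2a peak list that name a gene, lie over 10000 bp from the nearest start site given, touch an annotated RefSeq feature and overlap no Jmjd2c peak by as much as 1 bp. They make up 344 of the 8977 Jmjd2a peaks, and 344 of the 19498 peaks of both lists. The sites were thus chosen by measured values, namely distance to a start, annotated feature and overlap with Jmjd2c, and those values are given as description. The 2 sets most like them are the 83 distal gene-body Jmjd2a peaks that do overlap Jmjd2c, called shared gene-body peaks below, and the 649 distal intergenic Jmjd2a peaks without Jmjd2c.

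The peaks come from mouse leukaemic granulocyte-macrophage progenitors (L-GMP) on a C57BL/6 background, transformed by the MLL-AF9 fusion and carrying the genotype Jmjd2a/b/cf/f;Rosa26::CreERT2, so the floxed alleles and the ubiquitously expressed, tamoxifen-activated Cre are present in every group. Cells grew in 20% serum and 10 ng/ml interleukin-3 and were either untreated (Ctrl) or given 500 nM 4-hydroxytamoxifen (OHT) for 96 h. Chromatin immunoprecipitation and sequencing gave 12 libraries in 8 groups, with 1 Ctrl and 1 OHT library for each of Jmjd2a and Jmjd2c and 2 of each for the histone marks H3K9me3 and H3K36me3. The deposited tables hold called regions and their annotation, with no height, score or value per library, so depth is unknown, no replicate check exists, and neither OHT nor the marks were compared here. The identity of the cells could not be checked against markers in peak positions.

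Jmjd2a and Jmjd2c are JmjC-domain enzymes that demethylate histone H3 at lysine 9 and at lysine 36. Both also carry tandem Tudor domains, which bind methylated histone tails. Trimethylated lysine 36 is laid down along the bodies of transcribed genes, and trimethylated lysine 9 marks silent chromatin and repeats, so gene interiors can hold substrates of these enzymes. No such substrate was measured at the sites described here.

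Of the 329 sites on chromosomes with start windows in the RefSeq table used (build GRCm38.p6, whose chromosomes are those of mm10), 12 (3.65%, exact 95% binomial interval 1.90 to 6.28) lay within 1000 bp of a RefSeq start that the deposited nearest-start column does not give. The start was that of the gene under the peak at Mef2c, Cnpy1 and Sult2b1. At Zfyve9 it was a protein-coding start, and at the remaining 8 sites that of a long noncoding RNA. Among the 12, 5 sites covered the start itself, all of them starts of noncoding RNAs. The windows of 300 bases around 4 of those starts are shown because they are sequence inside the sites, together with the internal start of Mef2c, which encodes a myeloid and lymphoid transcription factor activated by MLL fusions. Capitals mark each CG dinucleotide, the letters that DNA methyltransferases act on, and each window runs from 250 bases before the start to 50 after it.
Gm13584 start within the Lhx2 site, chr2:38368796-38369095, minus strand: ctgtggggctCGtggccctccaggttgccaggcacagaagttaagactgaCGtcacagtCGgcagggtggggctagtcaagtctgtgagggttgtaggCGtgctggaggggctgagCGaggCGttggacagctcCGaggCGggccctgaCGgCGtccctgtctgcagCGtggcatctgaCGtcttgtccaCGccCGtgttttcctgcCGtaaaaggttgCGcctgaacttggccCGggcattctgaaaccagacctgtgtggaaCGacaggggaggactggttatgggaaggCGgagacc
LOC102631979 start within the Grb10 site, chr11:11967476-11967775, minus strand: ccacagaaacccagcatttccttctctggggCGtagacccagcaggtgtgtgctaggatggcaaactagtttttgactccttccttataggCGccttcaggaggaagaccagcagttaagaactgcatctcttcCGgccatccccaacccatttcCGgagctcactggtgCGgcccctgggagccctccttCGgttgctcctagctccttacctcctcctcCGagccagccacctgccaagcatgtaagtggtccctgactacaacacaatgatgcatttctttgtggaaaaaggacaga
Gm47815 start within the Sobp site, chr10:43034644-43034943, plus strand: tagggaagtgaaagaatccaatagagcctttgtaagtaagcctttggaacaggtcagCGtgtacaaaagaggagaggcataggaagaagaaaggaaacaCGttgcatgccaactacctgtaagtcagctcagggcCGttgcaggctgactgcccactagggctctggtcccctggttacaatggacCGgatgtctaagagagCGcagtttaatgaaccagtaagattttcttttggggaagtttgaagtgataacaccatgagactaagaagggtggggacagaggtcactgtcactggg
Gm41442 start within the site named Mir1195, chr16:31233169-31233468, plus strand: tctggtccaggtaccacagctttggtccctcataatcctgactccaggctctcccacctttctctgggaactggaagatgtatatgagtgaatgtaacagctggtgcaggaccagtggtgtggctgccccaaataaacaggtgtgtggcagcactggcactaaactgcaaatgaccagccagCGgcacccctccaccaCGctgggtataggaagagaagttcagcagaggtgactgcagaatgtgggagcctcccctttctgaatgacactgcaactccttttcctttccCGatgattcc
Mef2c internal start, 496 bp from the Mef2c site, chr13:83523406-83523705, plus strand: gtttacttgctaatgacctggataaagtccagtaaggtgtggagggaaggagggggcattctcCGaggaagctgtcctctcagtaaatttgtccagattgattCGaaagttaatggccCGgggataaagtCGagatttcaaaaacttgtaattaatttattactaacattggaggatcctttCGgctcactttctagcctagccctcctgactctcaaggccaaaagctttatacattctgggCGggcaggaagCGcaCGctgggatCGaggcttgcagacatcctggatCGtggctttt

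The windows differed widely in CG content. The window in the site at Lhx2, a LIM homeobox gene, held 19 CGs (62.3% G+C). Those at Grb10, an imprinted signalling adaptor gene, at Sobp and under the name Mir1195 held 7, 5 and 3 (54.3%, 48.3% and 53% G+C), and the Mef2c window held 10 (47% G+C). Over all 32851 start windows the median was 7 CGs (quartiles 3 and 20), and over the 10553 windows within 1000 bp of a Jmjd2c peak it was 23 (16 and 31). The Lhx2 window lay between the quartiles of starts near Jmjd2c, and the nearest Jmjd2c peak was 80989 bp from that site. Shared gene-body peaks lay within 1000 bp of such a start at 17 of 82 (20.7%, 12.6 to 31.1), and intergenic peaks without Jmjd2c at 57 of 628 (9.08%, 6.95 to 11.6). This count was chosen after its values were seen and was not tested.

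For 12 sites the deposited annotation names a microRNA whose RefSeq locus is on another chromosome, and for 10 of these it names nothing else. In all 19 microRNA names were involved. RefSeq places 15 of them, of the Mir466 and Mir669 families, within Sfmbt2 on chromosome 2, a gene of the Polycomb group that itself held a site over its 3′ untranslated exon (318 bp). It places Mir8115 within P2rx7, 1086 bp from a site over exon and 3′ untranslated sequence of that gene (390 bp), which encodes an ATP-gated ion channel. The name Mir8115 itself stood at 3 sites on chromosome 11, which start at 86894027, 87026352 and 87453211. The RefSeq loci of the 19 names are 74 to 119 bp long. Why the annotation places the names at these sites was not tested, and counts are for all 344 sites unless stated. The mature sequences of 4 of the 19 names, Mir1195, Mir1950, Mir5098 and Mir8115, were taken from the RefSeq table and are shown because the annotation placed these names there, with the seed (bases 2 to 8) in capitals. The 4 seeds differ from each other.
mmu-miR-1195: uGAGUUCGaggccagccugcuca
mmu-miR-1950: uCUGCAUCuaaggauaugguca
mmu-miR-5098: gUUACAUGgugaagcccaguu
mmu-miR-8115: cCGCAAUAgcaacaagggcucu

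The sites were narrow. Their median width was 474 bp (quartiles 365.8 and 622, range 257 to 1475), and together they covered 182.5 kb. Intergenic peaks without Jmjd2c were of like width (median 481 bp, quartiles 385 and 688), while shared gene-body peaks (686 bp, 463 and 925) and Jmjd2a peaks within 1000 bp of a start (761 bp, 530 and 1062) were wider. Jmjd2a peaks near a start but without Jmjd2c had a median of 615 bp. Overlap with another list depends on width, so these differences were not tested, and width does not measure signal.

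**Figure D1:**
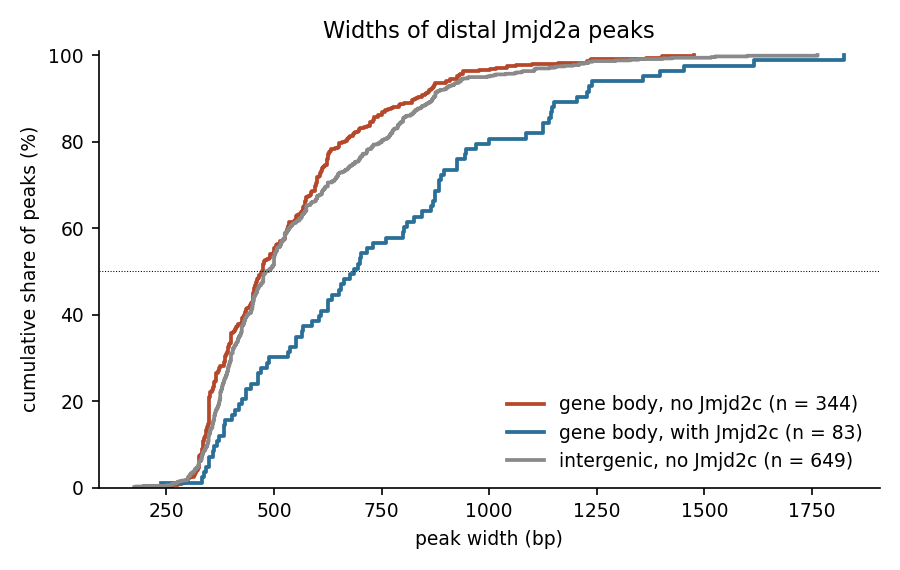
Cumulative share of peaks (y axis, %) by peak width (x axis, bp) for 3 sets of Jmjd2a peaks over 10000 bp from a start site. The curve of the 344 gene-body peaks without Jmjd2c runs beside that of the 649 intergenic ones (medians 474 and 481 bp), and the curve of the 83 shared gene-body peaks lies to the right (median 686 bp).

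The widest site spanned 1475 bp (chromosome 8, 15026902 to 15028376, mm10) over an exon of Kbtbd11 with coding and 5′ untranslated sequence, a BTB-Kelch gene, 15877 bp from its start. Next came an intron of Cacna1b, a neuronal calcium channel gene (1401 bp; chromosome 2, 24642502 to 24643902), 119250 bp inside the gene. The end of Zfp697, a zinc finger gene, held a site of 1365 bp (chromosome 3, 98427312 to 98428676) over coding and 3′ untranslated exon. A site of 1234 bp at Cpn1, a carboxypeptidase subunit gene, also touched an exon. An intron of Bcl11b, which encodes a T cell transcription factor, held 1227 bp (chromosome 12, 107979975 to 107981201), and exons of the splicing-related gene Srrm3 and of Stac 1160 and 1100 bp. The 10 widest ended with introns of Cep57l1 (1062 bp) and of the palmitoyltransferase gene Hhat (1041 bp). Of the 8 genes among these 10 with a start in the RefSeq table, Cep57l1 and Hhat had both proteins at the start, Cacna1b had Jmjd2a alone, and Zfp697, Cpn1, Bcl11b, Srrm3 and Stac had neither.

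Most sites were annotated to introns. No exon was touched by 257 (74.7%, 69.8 to 79.2), and 205 of these lay only in introns of the coding part. A further 45 sites without an exon are annotated to an intron of a 5′ untranslated part, among them those at Mef2c, Prickle1, a planar polarity gene, Hdac9, a class IIa histone deacetylase gene, and Tln2, an actin linker gene. The remaining 7 carried a 3′ untranslated label without an exon, and all but the site at Cdh23 lay under names of microRNAs or long noncoding RNAs. Such names carried a 3′ label on the minus strand and a 5′ label on the plus strand, also among the 45. There the label marks no untranslated part of a coding transcript. Of the 87 sites that touched an exon (25.3%, 20.8 to 30.2), 55 were labelled with coding and no untranslated sequence, many of them covering intron too. Another 26 were labelled with 3′ untranslated sequence, those in the noncoding genes Gm4827 and F730043M19Rik included. The other 6 were labelled with 5′ untranslated sequence, among them those in Kbtbd11, Srrm3, Src, Pam and Mansc1. A single site covered an annotated transcript end, at Supt3 (525 bp), a subunit gene of the SAGA coactivator.

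Of the 83 shared gene-body peaks, 33 touched an exon (39.8%, 29.2 to 51.1). This share is set beside that of the sites as description, since exon contact goes with peak width and the sets differ in width. Among peaks under 706 bp, the median of the Jmjd2a list, the shares were 22.0% for the sites (63 of 286; 17.4 to 27.3) and 33.3% for shared peaks (15 of 45; 20.0 to 49.0). Among wider ones they were 41.4% (24 of 58; 28.6 to 55.1) and 47.4% (18 of 38; 31.0 to 64.2), and the intervals overlap in both classes. In the wider 50% of both lists the order was the other way (44.2% of 86 sites against 40.0% of only 10 shared peaks).

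Within the gene under them more sites lay in the later part. For the 330 sites with a single RefSeq gene and strand, the median position of the peak centre was 63.7% of the way from start to end (quartiles 37.2% and 83.6%), and 120 sites (36.4%, 31.2 to 41.8) lay in the last 25% of the gene against 45 (13.6%, 10.1 to 17.8) in the first 25%. Shared gene-body peaks had a median position of 60.5%, with 36.2% in the last 25%. The requirement of 10000 bp from any start in the deposited annotation removes the beginnings of genes, so this order is not independent of the choice of sites. Sites over a 3′ untranslated exon included Kdr, a VEGF receptor gene (437 bp; chromosome 5, 75933477 to 75933913; 98.1% along the gene), Bcl9, a Wnt coactivator gene (329 bp, 99.6%), Fcrl5 (343 bp, 99.7%) and Dio2, a thyroid hormone deiodinase gene (366 bp, 96.7%).

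**Figure D2:**
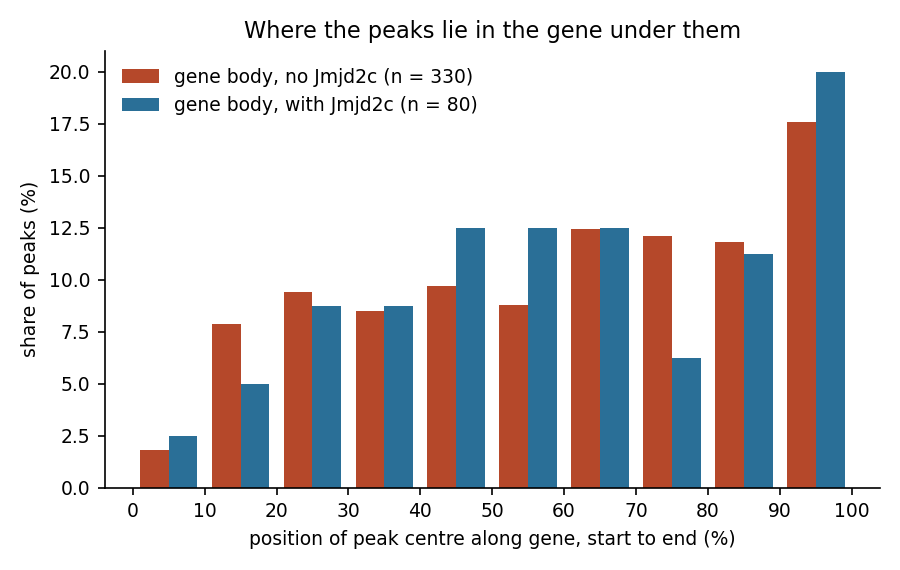
Share of peaks (y axis, %) by position of the peak centre along the gene under it (x axis, % of the way from start to end, in bins of 10) for the 330 gene-body Jmjd2a peaks without Jmjd2c and the 80 shared ones that have a single RefSeq gene and strand. The lowest bars of both sets are in the first bin and the highest in the last, and the distance rule removes peaks near every start of the deposited annotation.

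Of the 332 sites with a RefSeq gene under them, 176 (53%, 47.5 to 58.5) lay in a gene with a Jmjd2c peak elsewhere in its span, and 189 (56.9%, 51.4 to 62.3) in a gene with another Jmjd2a peak. For the 80 shared gene-body peaks with such a gene the shares were 57.5% (45.9 to 68.5) and 51.2% (39.8 to 62.6), within overlapping intervals, and neither was tested. The same shares over all genes are not given, and a longer span can hold more peaks. The genes were long, with a median of 108392 bp over the 330 sites (quartiles 54682.8 and 267288). For the 80 shared gene-body peaks the median was 104910 bp. The distance rule keeps short genes out, so gene length is not independent of the choice of sites. From the 344 sites the nearest start site was a median of 31722.5 bp away (quartiles 18547.5 and 69163). For 216 sites (62.8%, 57.4 to 67.9) it was the start of the gene under the peak. The farthest lay 1045748 bp from the start of Opcml, a neuronal adhesion gene (475 bp wide), followed by sites in Sugct (666223 bp) and Ccser1 (647481 bp). Next were sites in Dcc, the netrin receptor gene (460483 bp), and in Wwox, a gene at a fragile site (429718 bp, nearest to the start of Maf). Just inside the threshold were sites in the synaptic scaffold gene Shank3 (10011 bp), Adam3 (10013 bp) and Hdac9 (10034 bp), and just outside it lay peaks in Fbxl2 (9869 bp), Dock5 (9682 bp) and Arid1b, a SWI/SNF subunit gene (9653 bp).

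Few of the sites had Jmjd2c close by, as was so for intergenic peaks without Jmjd2c. The nearest Jmjd2c peak was a median of 66568 bp away (quartiles 29331.8 and 151713), and only 3 sites (0.872%, 0.180 to 2.53) had one within 1000 bp. These were in Vwf, which encodes von Willebrand factor (189 bp away), Tcf4, an E protein gene (430 bp), and Dlc1, a tumour suppressor gene (680 bp). Within 10000 bp there were 12 (3.49%). For intergenic peaks without Jmjd2c the shares were 1.85% within 1000 bp and 6.78% within 10000 bp, with a median gap of 55025 bp. The choice of peaks without overlap and away from starts bears on all these counts, which were not tested. On the other side of the overlap rule, the smallest overlap that kept a peak out was 44 bp, at Pced1b. At 116 sites (33.7%, 28.7 to 39.0) the nearest Jmjd2c peak was the one at the nearest start site, against 40.2% of intergenic peaks without Jmjd2c. Another Jmjd2a peak lay within 10000 bp of 21 sites (6.1%, against 10.2% of those intergenic peaks) and within 1000 bp of 8 (2.33%, against 3.85%). The 8 sites are 4 neighbouring pairs, in Glis3 (101 bp apart), Camta1 (161 bp), Ramp1 (220 bp) and 1110051M20Rik (536 bp).

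**Figure D3:**
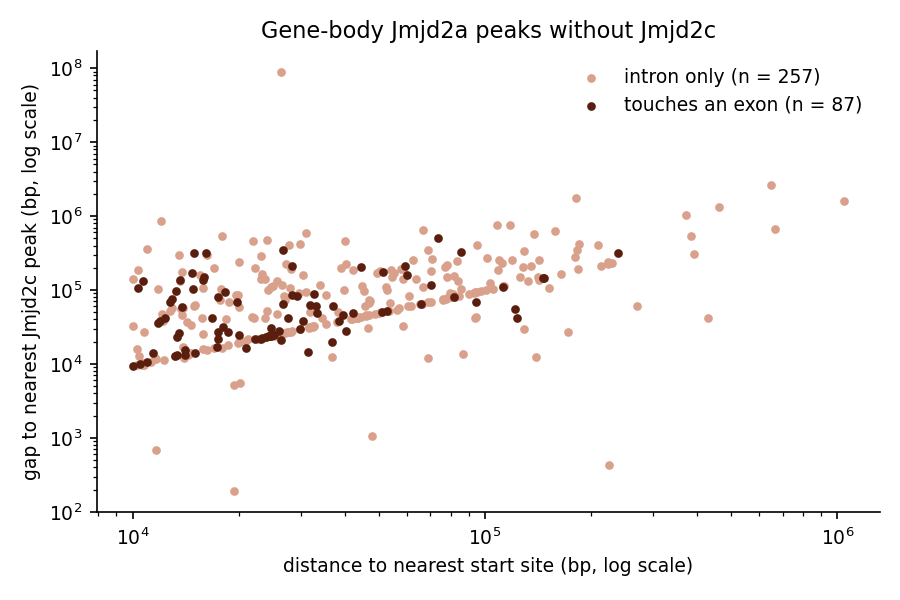
Gap from each of the 344 sites to the nearest Jmjd2c peak (y axis, bp, log scale) against its distance to the nearest start site (x axis, bp, log scale), with the 257 intron-only sites and the 87 that touch an exon in different shades. Points on the diagonal are sites whose nearest Jmjd2c peak is at the nearest start site, only 3 points lie under 1000 bp, and the highest point is the site on chromosome Y.

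The sites fell in 304 RefSeq genes, of which 27 held several (24 genes with 2 and 3 genes with 3). Sites of a gene share their source and are not independent. Sgip1, an endocytosis gene, had sites of 612, 908 and 622 bp within its last part (80.2% to 90.7% along the gene). Camta1, a calmodulin-binding transcription activator gene, had 426, 587 and 532 bp at 88.4% to 95.6%. Atp8a2, a neuronal phospholipid flippase gene, had 384, 425 and 939 bp spread from 41.2% to 90.0%. The cAMP phosphodiesterase genes Pde4b (589 and 1002 bp) and Pde4d (723 and 677 bp) had 2 each, as did Bcl11b (1227 and 325 bp, 11525 bp apart), Cd101, a leukocyte surface receptor gene (850 and 650 bp), and Glis3, a zinc finger gene (1015 and 325 bp). Of these genes 5, Camta1, Hip1, Nfia, Sobp and Srcin1, also held a shared gene-body peak, which is 5 of the 304 genes with a site and 5 of the 76 with a shared peak.

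The next question was whether the genes that carry such a site carry the 2 proteins at their start, a position the choice of sites did not use. The site itself, and for shared peaks the Jmjd2c peak it overlaps, was not counted, so the Jmjd2a peaks near internal starts of Mef2c, Cnpy1 and Sult2b1 do not make those starts occupied. Start windows were in the table for the genes of 240 sites. The table gives none for chromosome 18, which holds 15 sites, and lacks other genes too. Jmjd2c lay within 1000 bp of a start of the gene at 111 of the 240 (46.2%, 39.8 to 52.8), and Jmjd2a at 113 (47.1%, 40.6 to 53.6). Of all 11079 protein-coding genes over 10 kb with a start window, 54.7% had Jmjd2c and 40% had Jmjd2a at a start. Those shares count each gene once, whatever its length (median 32.6 kb). The shares for the sites count peaks, which fall more often in long genes, so they are not directly comparable with the shares of genes. Both proteins were at the start for 86 sites, neither for 102, Jmjd2a alone for 27 and Jmjd2c alone for 25. With the RefSeq 5′ end of the gene taken as its start, which covers 330 sites, the shares were 41.8% for Jmjd2c and 41.5% for Jmjd2a.

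No difference of these shares from those of the comparison peaks passed the test. For shared gene-body peaks the start had Jmjd2c at 29 of 64 (45.3%, 32.8 to 58.3), with an odds ratio of 1.04 (adjusted exact p = 1, Fisher's exact test between peaks, two-sided, over 5 tests). Jmjd2a was there at 27 of 64 (42.2%, 29.9 to 55.2), with an odds ratio of 1.22 (adjusted exact p = 0.725). Through the gene of the nearest start, Jmjd2c was at 46.5% for the sites and at 53.3% for intergenic peaks (114 of 245 and 262 of 492; odds ratio 0.764, adjusted exact p = 0.251), and Jmjd2a at 44.1% and 41.7% (108 of 245 and 205 of 492; odds ratio 1.10, adjusted exact p = 0.725). A p that misses the threshold does not show equal shares, and the intervals above are what these numbers of peaks allow.

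**Figure D4:**
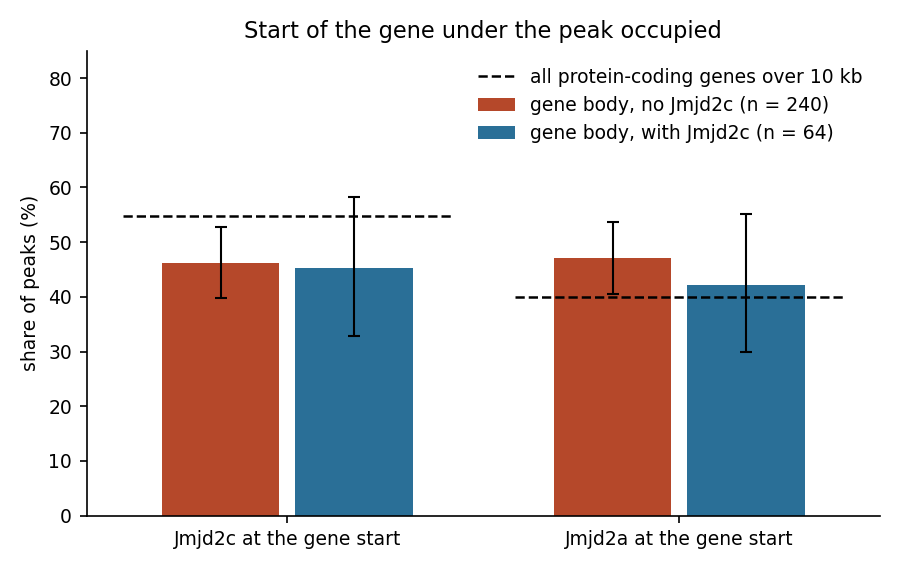
Share of peaks (y axis, %) whose underlying gene has Jmjd2c or Jmjd2a within 1000 bp of a start, for the 240 gene-body Jmjd2a peaks without Jmjd2c and the 64 shared ones with a start in the table. Error bars are exact 95% binomial intervals over peaks. Dashed lines give the share of all protein-coding genes over 10 kb, each counted once whatever its length (54.7% and 40%), so bars and lines are not directly comparable.

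The 27 sites in genes with Jmjd2a alone at the start lay in 25 protein-coding genes, 5.85% of the 427 genes over 10 kb of that kind, against 1.95% of all 11079. Per length of gene beyond 10 kb this was 0.724 sites per Mb (exact 95% Poisson interval 0.477 to 1.05), against 0.404 (0.323 to 0.499) where both proteins were at the start, 0.263 (0.165 to 0.398) with Jmjd2c alone and 0.288 (0.234 to 0.350) with neither. These densities were not tested, and both kinds of Jmjd2a peak come from the same list. The genes include the calcium channel genes Cacna1b and Cacna1c (469 bp), the glutamate receptor genes Grin1 (596 bp) and Grik4 (514 bp), Flt1, a VEGF receptor gene (618 bp), Src, a tyrosine kinase gene (686 bp), Rasgrp1, a Ras activator gene (567 bp; chromosome 2, 117300020 to 117300586), and Sfmbt2.

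The relation between Jmjd2c at the start and sites in the body turned with gene length. In genes of 10 to 50 kb, sites were denser where Jmjd2c was not at the start (40 sites, 0.917 per Mb beyond 10 kb, 0.655 to 1.25) than where it was (17 sites, 0.286 per Mb, 0.167 to 0.458). At 50 to 100 kb the densities were 0.497 and 0.428, and at 100 to 200 kb 0.425 and 0.303, with overlapping intervals. In genes over 200 kb the order was the other way, with 36 sites and 0.157 per Mb (0.110 to 0.217) without Jmjd2c at the start and 36 sites and 0.420 per Mb (0.294 to 0.582) with it. Taken over all lengths the densities were 0.330 and 0.364. These intervals cover counting error only, and the difference in direction was not tested. The length beyond 10 kb still includes stretches within 10000 bp of internal or neighbouring starts, where the distance rule allows no site. How much length that is differs between genes and was not taken out.

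**Figure D5:**
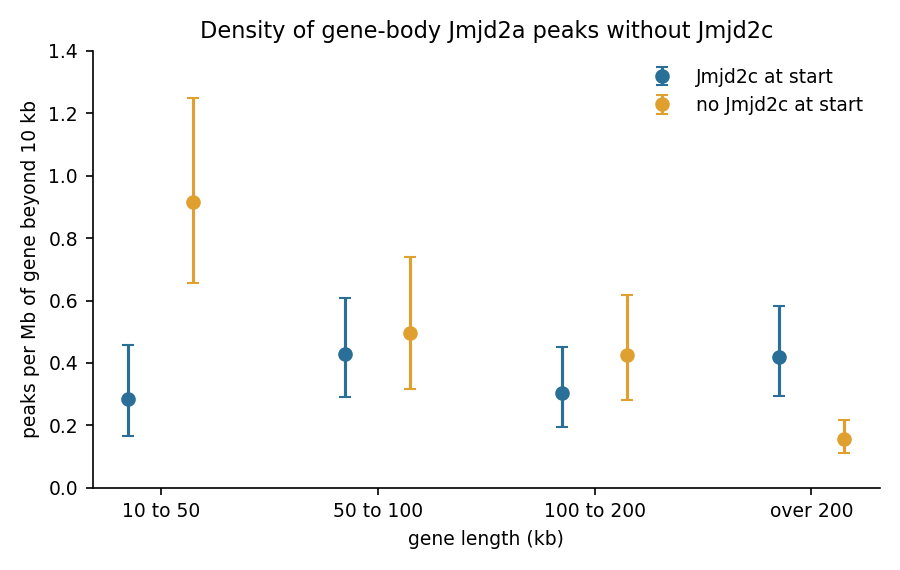
Gene-body Jmjd2a peaks without Jmjd2c per Mb of gene beyond the first 10 kb (y axis) by length of the protein-coding gene (x axis, kb), for genes with and without Jmjd2c within 1000 bp of a start. Points are densities and bars exact 95% Poisson intervals, and the order of the 2 kinds of gene at 10 to 50 kb (0.286 and 0.917) is opposite to that over 200 kb (0.420 and 0.157).

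Gene lists for blood cells, leukaemia and signalling held between 1 and 9 genes with a site each. Of all 13961 protein-coding genes over 10 kb, 296 (2.12%) held a site, and list counts are set against this share. The lists were compared by counts only, and longer genes hold sites more often (0.763% of genes of 10 to 50 kb with a start window against 8.47% of those over 200 kb). Haematopoietic transcription factors held sites in 4 of 52 genes (7.69%). These were Nfia, a factor of erythroid and granulocytic choice (698 bp; chromosome 4, 97757510 to 97758207; Jmjd2c peak 5133 bp away), Mef2c (650 bp; chromosome 13, 83524152 to 83524801; Jmjd2c peak 5586 bp away), Tcf4 (425 and 332 bp) and Stat5b, a signal transducer of the interleukin-3 receptor (325 bp; chromosome 11, 100804927 to 100805251). With the sites themselves left out, Stat5b had both proteins at its start, and Nfia and Mef2c had neither. Target genes of MLL fusions held sites in 3 of 31 (9.68%), namely Mef2c, Tcf4 and Ptprc, the leukocyte phosphatase CD45 (359 bp).

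Interleukin-3 receptor, JAK-STAT and RAS signalling genes held sites in 2 of 51 (3.92%), Rasgrp1 and Stat5b. Chromatin regulators held sites in 1 of 82 (1.22%), Hdac9 (460 bp; chromosome 12, 34906602 to 34907061). Granulocyte, monocyte and macrophage genes had 1 of 22 (4.55%), the mannose receptor gene Mrc1 (346 bp), and genes of lymphoid, erythroid, megakaryocyte and mast cells 1 of 18 (5.56%), Vwf, with sites of 575 and 348 bp. Markers of other tissues had 1 of 19 (5.26%), Kdr. GTPase regulator genes, a list drawn by name that takes in the Rgs genes, held sites in 9 of 180 (5%). Among them were the ArfGAP genes Asap1 (658 bp) and Agap1 (600 bp), Rgs3 (505 bp) and the Rap activator gene Rapgef4 (385 bp). Motor and linker genes of the cytoskeleton had 5 of 113 (4.42%), with Kif26b (733 bp), Myo1d (687 bp), Dync1i1 (572 bp), Tln2 (571 and 450 bp) and Kif5c (350 and 375 bp). Zinc finger genes of the Zfp and Zbtb series had 2 of 369 (0.542%), Zfp697 and Zfpm2 (336 bp).

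Lists of ion channel, signalling and developmental genes were drawn up after the sites were seen. Voltage-gated ion channel subunit genes held sites in 7 of 113 (6.19%). Besides Cacna1b and Cacna1c these were Cacna1a (612 bp), the sodium channel gene Scn8a (614 and 450 bp) and the potassium channel genes or partners Kcnip1 (875 bp), Kcnh5 (557 bp) and Kcnma1 (335 bp). Scn8a, Kcnip1, Kcnh5 and Kcnma1 had neither protein at a start, and Cacna1a has no start window in the table. Cyclic nucleotide phosphodiesterase genes held 5 sites in 3 of 22 genes (13.6%), Pde4b, Pde4d and Pde7b (741 bp), none of which had either protein at a start. Axon guidance genes held 5 sites in 4 of 67 (5.97%), Plxna4 (834 and 330 bp), the semaphorin co-receptor gene Nrp2 (525 bp, with both proteins at its start), Dcc (457 bp) and Unc5d (408 bp). LIM homeobox genes held sites in 3 of 8 (37.5%), Lhx2 (337 bp), Lhx6 (750 bp) and Lhx9 (452 bp), all touching exons. Jmjd2a alone was at the start of Lhx2, and neither protein at those of Lhx6 and Lhx9.

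Sites were found on every chromosome, X and Y included. Chromosome 2 held 38 sites (11%, with 8.47% of all Jmjd2a peaks and 7.88% of protein-coding gene length), and chromosome 14 held 6 (1.74%, with 3.54% and 4.56%). Chromosome X held 1 (0.291%), against 1.28% of all Jmjd2a peaks, 1.23% of intergenic ones without Jmjd2c and 4.42% of gene length. That site lay in an intron of the noncoding gene Gm14634 (348 bp; 12813127 to 12813474). The number of sites per Mb of protein-coding gene ranged from 0.0219 on X to 0.467 on chromosome 2. It counts all sites, those in noncoding genes or without a RefSeq gene included. The deposited annotation names Erdr1 for the site on Y (447 bp), where no RefSeq gene was matched.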

How the data were processed

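The tools listed per the submitters' processing notes are bedtools 2.25.0, SAMtools and Bowtie 0.12.7, with mm10 as the build. Which peak caller, control and libraries made each list was not given in the sources used here. The authors deposited positions in bp, RefSeq features and the nearest start with its distance in bp, per the file headers. Positions count from 0 in the files and from 1 here. "intron" with "cds" or a UTR and no "exon" was read as an intron of that part, except under names of noncoding RNAs, where the UTR label follows the strand.

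Overlap was at least 1 bp. Genes under peaks were matched by RefSeq accession, then symbol, to GRCm38.p6, keeping those whose span meets the peak (332 of 344 sites). A start counted as bound with a peak within 1000 bp, starts being the table's 32851 windows. Shares carry exact (Clopper-Pearson) 95% intervals. Tests were two-sided Fisher's exact tests between sets of peaks, with Benjamini-Hochberg adjustment over 5 tests at 0.05, and peaks are not replicates. Sites named were the 10 widest, the 5 farthest from a start, those of up to 8 genes with most sites, the 5 widest over an exon, up to 5 per gene list and 3 on each side of the distance threshold. Some named genes and the values that need them are not reported here. Other sites named were chosen after their values were seen. Sites and lists were chosen with earlier results of these data known. The overlap and gap steps and Fisher's exact test were tested on simulated data. The step that counts bound starts was not. Python 3.11.15, numpy 2.4.6, pandas 2.3.3, scipy 1.17.1 and matplotlib 3.10.9 were used.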

Additional observations from a re-analysis of the deposited data

How the results depend on the processing

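With the wider 50% of both lists 86 sites remained, of median width 872.5 bp, and the share over an exon turned to 44.2% against 40% for shared gene-body peaks, only 10 of which were left. Jmjd2c was then at the start of the gene under 15.2% of sites and of the nearest-start gene for 17.4%, and Jmjd2a at 31.8% and 31.9%, each of the lists compared being shorter by construction. The planned Fisher's exact test of exon contact (adjusted exact p = 0.0499) supports nothing here, because width goes with both measures, and it no longer passed with Jmjd2c peaks within 1000 bp counted as overlapping (25.5%), with a distance of over 20000 bp (20.5%), without X and Y (25.4%) and without misplaced microRNA names (26.2%). None of the differences in start occupancy passed, and some turned direction: Jmjd2c at the start of the gene under the peak without X and Y (46% against 46%, before rounding lower), Jmjd2a at the gene of the nearest start with a distance of over 5000 bp (40.8% against 41.1%), and with start sites named in the deposited files Jmjd2a at the gene under the peak (50.9% against 54.4%) and at the gene of the nearest start (38.3% against 38.7%). The cause was not tested. The last settings, the misplaced names and the 5′ ends were chosen after seeing the data. The number of sites was 435 with a distance of over 5000 bp and 249 with over 20000 bp. The other comparisons kept their direction and side of the threshold. Depth is unknown, so weak Jmjd2c sites can be missing from the list. No paired analysis was possible because the peak lists hold no value per replicate.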
